A study of Sus scrofa with 20 samples.

Results

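The small leucine-rich proteoglycans are extracellular matrix proteins, and 8 of them were followed here in pig skeletal muscle: decorin (DCN), lumican (LUM), biglycan (BGN), fibromodulin (FMOD), keratocan (KERA), osteoglycin (OGN), prolargin (PRELP) and asporin (ASPN). They were found by gene symbol in the array's platform annotation, which gave 9 probe sets for the 8 genes, out of 47845 probe sets on the array and 13668 named genes. Each gene was read from its probe set of highest mean over all arrays, and the other probe set of PRELP is given beside it. All 9 probe sets passed the filter on low signal.

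Transcripts were measured in longissimus, a large back muscle, from 20 female pigs, and every animal had its own Affymetrix Snowball array, hybridised with biotin-labelled DNA made from its RNA. Of these, 10 animals had low and 10 had high residual feed intake (RFI). RFI is the feed eaten in excess of the amount predicted from an animal's growth and upkeep, and low values mark the more feed-efficient animals. No treatment is named, and the labels used here give no breed, age, litter or array batch. Each array was taken as 1 animal on the basis of the design text, and p-values measure the spread between these animals.

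Small leucine-rich proteoglycans have a curved core of leucine-rich repeats that lies on collagen fibrils, and most carry chains of chondroitin, dermatan or keratan sulfate. They control how thick and how regular collagen fibrils become, and several bind TGF-beta or signalling receptors. In skeletal muscle they are made mainly by the fibroblasts of the connective tissue sheaths that surround fibres and fibre bundles. The family is grouped by sequence into class I (DCN, BGN and ASPN), class II (LUM, FMOD, KERA and PRELP) and class III (OGN). In the pig gene table of the Sscrofa11.1 assembly, DCN, LUM and KERA lie side by side, FMOD lies beside PRELP, and OGN and ASPN are parted only by the related gene OMD, with 0 protein-coding genes between neighbours.

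The values are log2 signals, and a level does not rank genes by abundance, since each probe set binds its target with its own strength. Levels were set against each other only to filter, to choose the probe set of a gene and to judge nearness to the background controls. The array means lay between 3.33 and 3.35, and arrays correlated with each other at 0.916 to 0.978. The 69 background control probe sets, which match no transcript, averaged 3.64 over all arrays, with single ones from 1.02 to 7.84. Their mean was 3.66 ± 0.16 in the low and 3.61 ± 0.13 in the high RFI animals (SD, n = 10 each). The 12 skeletal muscle fibre markers averaged between 11.5 and 12.0 in every animal, and 1 of them, PYGM, lay below the background mean at 2.93. A whole muscle sample does not tell fewer cells of a type apart from less RNA per cell. The number of arrays limits the precision.

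All 8 proteoglycan genes had a higher mean signal in low RFI than in high RFI, by 0.01 to 0.30 log2 units, and none passed the test after adjustment. By medians LUM, OGN and PRELP were lower in low RFI, and with single animals left out 6 to 8 of the genes had a higher mean. Over the 12119 represented genes, 49.2% were higher in low RFI. The median difference was 0.17 for the 8 genes and -0.0028 for all represented genes, whose quartiles were -0.09 and 0.08. At an adjusted p under 0.05, limma with Benjamini-Hochberg adjustment over 33405 probe sets called 0 of the 9 proteoglycan probe sets and 0 of all probe sets (0%), and the smallest adjusted p of the whole table was 0.941. An unadjusted p under 0.05 was found for 1306 probe sets (3.91%). By that unadjusted rule 1 of the 8 genes, ASPN, was higher in low RFI, where 2.15% of represented genes were, and 0 of the 8 were lower, where 1.2% were. The adjusted p from limma with Benjamini-Hochberg adjustment was 0.998 for each proteoglycan probe set, and a rank-sum test over all probe sets also called 0 after adjustment.

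**Figure D1:**
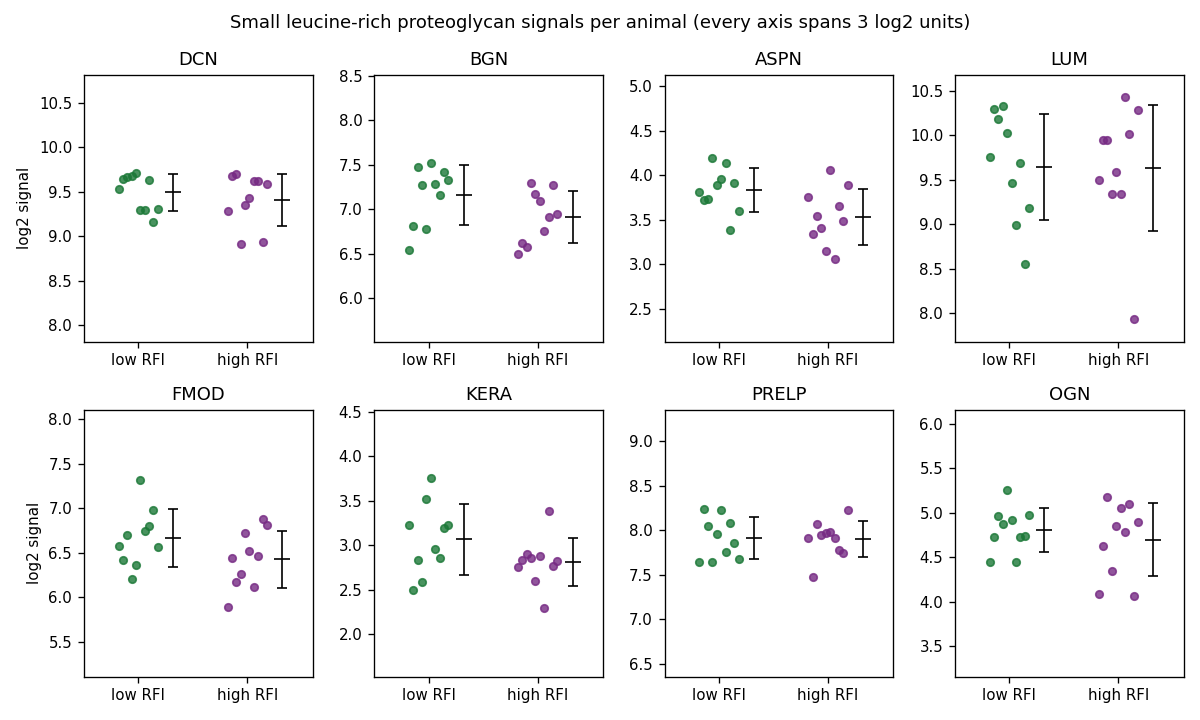
Log2 signal of each proteoglycan gene (vertical axis) in every animal (points) by RFI group, with the group mean and SD (black bars, n = 10); all panels span the same number of log2 units. The groups overlapped for every gene, and LUM had the widest range, from 7.93 to 10.43.

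Decorin, the class I member that binds type I collagen through its core protein and restrains fibril thickness, was a bright gene with little spread. In low RFI its signal had a lowest value of 9.16, a median of 9.58 and a highest of 9.71. In high RFI the values were 8.91, 9.51 and 9.69. The groups overlapped almost fully, and 1 low RFI animal lay above the highest high RFI animal. The means were 9.49 ± 0.21 (SD, n = 10) and 9.41 ± 0.29 (SD, n = 10). The difference was 0.08 ± 0.12 (SE), with a 95% confidence interval of -0.16 to 0.32, which on a linear scale runs from 0.895-fold to 1.25-fold (limma, unadjusted p = 0.495).

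Biglycan, the close relative of decorin that also binds the dystroglycan complex of the muscle membrane, had values of 6.54, 7.28 and 7.52 (lowest, median and highest) in low RFI. In high RFI the corresponding signals were 6.50, 6.93 and 7.30. Although 4 low RFI animals lay above every high RFI animal, the lower ends of both groups coincided. The means were 7.16 ± 0.33 and 6.92 ± 0.29 (SD, n = 10 each). The difference was 0.25 ± 0.14 (SE, 95% confidence interval -0.04 to 0.53; limma, unadjusted p = 0.0862; permutation test, p = 0.0962).

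Asporin, which carries a run of aspartate residues in place of sugar chains, competes with decorin for collagen and binds TGF-beta, had the largest difference of the 8 genes. Its values were 3.38, 3.85 and 4.20 (lowest, median and highest) in low RFI and 3.06, 3.51 and 4.06 in high RFI. The groups overlapped, with 9 of the 10 low RFI animals above the high RFI median and 3 high RFI animals below every low RFI animal. The means were 3.83 ± 0.24 and 3.53 ± 0.31 (SD, n = 10 each). The difference was 0.30 ± 0.13 (SE, 95% confidence interval 0.04 to 0.56), or 1.23-fold (limma, unadjusted p = 0.0253; permutation test, p = 0.0279). ASPN was dim: its mean over all animals was 3.68, and in 7 of 20 animals its signal was below the background controls of the same array. With each animal left out in turn, the unadjusted limma p for ASPN ranged from 0.00691 to 0.055.

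Lumican, a class II member with keratan sulfate chains that spaces the collagen fibrils of the cornea and is found in most connective tissues, varied more than any other member. In low RFI its lowest value was 8.56, its median 9.72 and its highest 10.33. In high RFI they were 7.93, 9.76 and 10.43. The high RFI group thus held both the lowest and the highest animal, and the groups overlapped throughout. The range of 2.49 log2 units is 5.62-fold, and its SD stood at percentile 94.8 among the 8554 represented genes at or above the background mean, against 37.6 for DCN and 20.7 for PRELP. The means were 9.65 ± 0.60 and 9.63 ± 0.71 (SD, n = 10 each). The difference was 0.02 ± 0.27 (SE, 95% confidence interval -0.54 to 0.57; limma, unadjusted p = 0.953). Its sign rested on single animals: without high RFI replicate 9, whose LUM was 7.93 against 9.34 for the next animal of its group, the difference was -0.17.

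Fibromodulin, the tendon-rich class II member that binds type I collagen and guides its cross-linking, had values of 6.20, 6.64 and 7.32 (lowest, median and highest) in low RFI. In high RFI they were 5.89, 6.46 and 6.88. The groups overlapped, with 2 low RFI animals above every high RFI animal and 3 high RFI animals below every low RFI animal. The means were 6.67 ± 0.32 and 6.43 ± 0.32 (SD, n = 10 each), a difference of 0.24 ± 0.14 (SE, 95% confidence interval -0.05 to 0.53; limma, unadjusted p = 0.103).

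Keratocan, best known from the cornea, was at background: its mean was 2.94, and 19 of 20 animals had a KERA signal below the background controls of their own array. Its values were 2.50, 3.07 and 3.75 (lowest, median and highest) in low RFI and 2.29, 2.83 and 3.38 in high RFI. The groups overlapped, with 2 low RFI animals above every high RFI animal. The means were 3.06 ± 0.40 and 2.81 ± 0.27 (SD, n = 10 each). The difference of 0.26 ± 0.15 (SE, 95% confidence interval -0.05 to 0.56; limma, unadjusted p = 0.0939) therefore lies among signals that the array does not separate from unspecific binding.

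Prolargin, the class II member whose arginine- and proline-rich end binds heparin and which links basement membranes to connective tissue, showed the smallest difference. Its values were 7.64, 7.90 and 8.24 (lowest, median and highest) in low RFI and 7.47, 7.93 and 8.23 in high RFI. The groups covered nearly the same range. The means were 7.91 ± 0.23 and 7.90 ± 0.20 (SD, n = 10 each), a difference of 0.01 ± 0.10 (SE, 95% confidence interval -0.20 to 0.23; limma, unadjusted p = 0.918). The dimmer probe set of PRELP gave another picture, with means of 5.19 ± 0.25 and 4.94 ± 0.31 and a difference of 0.25 ± 0.13 (SE, 95% confidence interval -0.01 to 0.51; limma, unadjusted p = 0.0595). Across the 20 animals the signals of both probe sets correlated at r = 0.44. Against DCN, the brighter PRELP probe set had r = 0.09 and the dimmer one r = -0.43, so PRELP values depend on the probe set read.

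Osteoglycin, the class III member also called mimecan, had values of 4.45, 4.81 and 5.25 (lowest, median and highest) in low RFI. In high RFI they were 4.07, 4.81 and 5.18. The medians coincided, and 3 high RFI animals lay below every low RFI animal. The means were 4.81 ± 0.24 and 4.70 ± 0.41 (SD, n = 10 each), a difference of 0.11 ± 0.15 (SE, 95% confidence interval -0.19 to 0.41; limma, unadjusted p = 0.456).

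**Figure D2:**
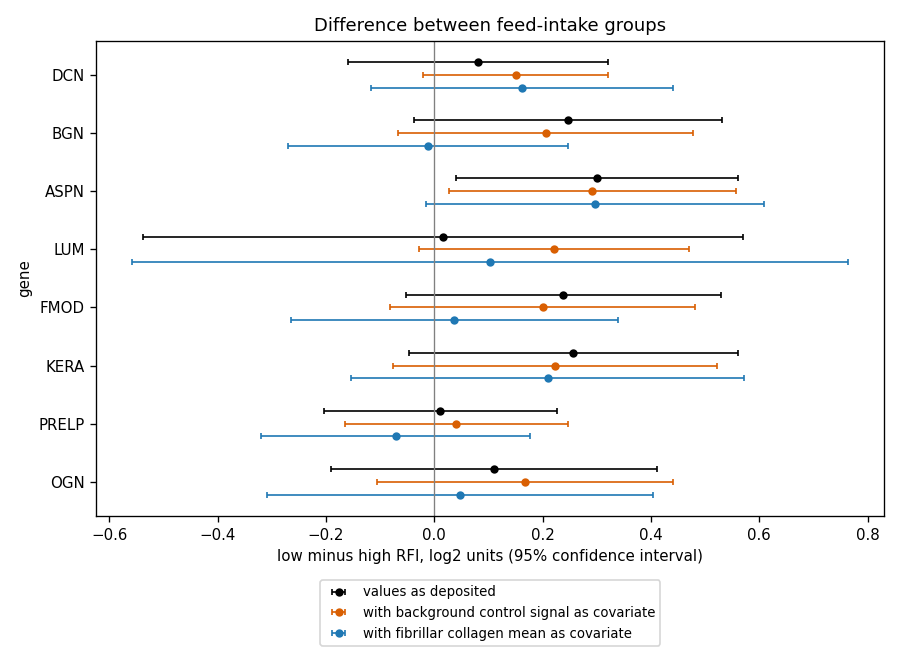
Difference between low and high RFI of each gene in log2 units (points) with its 95% confidence interval (bars), from the values as deposited, with the background control signal as a covariate, and with the fibrillar collagen mean as a covariate. From the values as deposited all 8 points lie right of 0, and with the collagen mean as covariate BGN moves from 0.25 to -0.01.

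The members did not vary together as 1 group from animal to animal. Over the 20 animals, with the mean of each RFI group subtracted, 18 of the 28 gene pairs correlated positively and 10 negatively, with a median r of 0.06. After Benjamini-Hochberg adjustment over the 28 pairs, 1 pair passed 0.05 in a permutation test with 100000 resamples. That pair was DCN and LUM, with r = 0.86 and rho = 0.82 (permutation p = 1e-05, the smallest these resamples can give, adjusted p = 0.00028; for rho, p = 4e-05, adjusted p = 0.00112). It held in low RFI (r = 0.93) and in high RFI (r = 0.82), and r was 0.88 without the 2 animals farthest from the DCN median.

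Beside that pair, OGN and DCN had r = 0.62 and rho = 0.56 (permutation p = 0.00806 and 0.0164, adjusted p = 0.0593 and 0.115), a relation that did not pass the threshold. BGN and FMOD had r = 0.60 and rho = 0.60 (permutation p = 0.00795 and 0.00831, adjusted p = 0.0593 and 0.0776). DCN and BGN, the closest relatives in sequence, had a negative correlation, with r = -0.58 and rho = -0.63 (permutation p = 0.00847 and 0.00392, adjusted p = 0.0593 and 0.0549). Without the 2 animals farthest from the median these were 0.44 for DCN with OGN, 0.57 for BGN with FMOD and -0.44 for DCN with BGN. These 3 relations lie short of the adjusted threshold.

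Neighbouring genes had both high and low correlations. DCN and LUM are neighbours, yet their neighbour KERA, at background here, had r = -0.17 with DCN and r = -0.25 with LUM. After the background signal was removed these were 0.12 and 0.05, so their signs are not settled. The neighbours FMOD and PRELP had r = 0.23, and OGN and ASPN had r = 0.07. Each of these 4 pairs had an adjusted permutation p above 0.05, at 0.785, 0.588, 0.622 and 0.982.

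**Figure D3:**
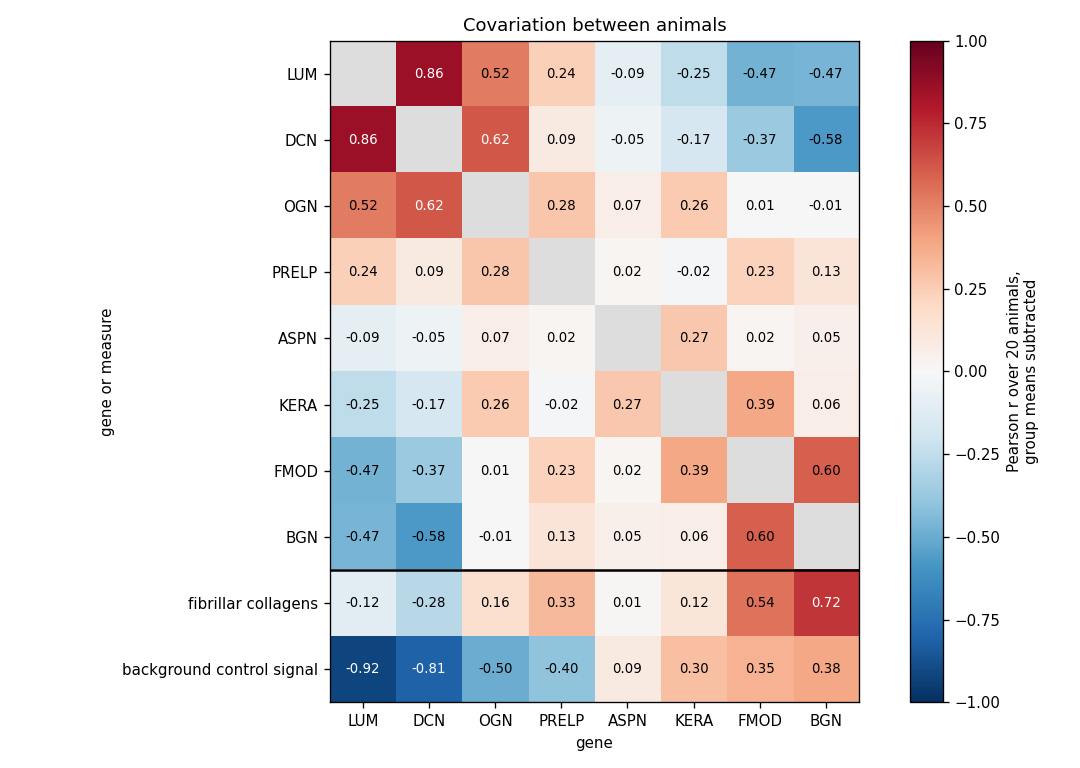
Pearson r between the genes over the 20 animals with group means subtracted (colour and number), and of each gene with the fibrillar collagen mean and the background control signal (the rows under the line). LUM, DCN and OGN had positive values with each other, from 0.52 to 0.86, and BGN with FMOD had 0.60. Of these pairs only DCN with LUM passed the adjusted threshold, and LUM with OGN had r = 0.18 after the background signal was removed.

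The background control signal of the array moved with LUM and DCN. Correlations were computed between each gene and 16 measures, the background controls and 15 gene lists, and p was adjusted over these 128 relations. Of these, 16 passed the adjusted threshold by r and 7 by rho. LUM fell along the background signal with r = -0.92 and rho = -0.92 (permutation p = 1e-05 for both, adjusted p = 0.00032 and 0.00128). For DCN r was -0.81 and rho -0.75 (permutation p = 1e-05 and 0.00024, adjusted p = 0.00032 and 0.0102). Without the 2 animals farthest from the median these r were -0.89 and -0.71. The background signal shared 84.3% of the within-group variance of LUM and 65.3% of that of DCN. Removing it took the within-group SD of LUM from 0.65 to 0.27 and that of DCN from 0.25 to 0.15.

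For the other members the relation with the background signal did not pass the adjusted threshold. It was r = -0.50 for OGN, -0.40 for PRELP, 0.38 for BGN, 0.35 for FMOD, 0.30 for KERA and 0.09 for ASPN, with adjusted permutation p from 0.121 to 0.842. The 4 arrays of highest background were 3 of low RFI and 1 of high RFI, and they were the 4 lowest in LUM and included 2 of the 4 lowest in DCN. After the background signal was removed, DCN and LUM had r = 0.49, and 0 of the 28 pairs passed the adjusted threshold. Without those 4 arrays r was 0.75. With the background signal as a covariate the differences between RFI groups were 0.15 ± 0.08 (SE) for DCN and 0.22 ± 0.12 for LUM, against 0.08 and 0.02 without it (limma, unadjusted p = 0.082 and 0.0796). What set the background signal of an array was not tested.

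**Figure D4:**
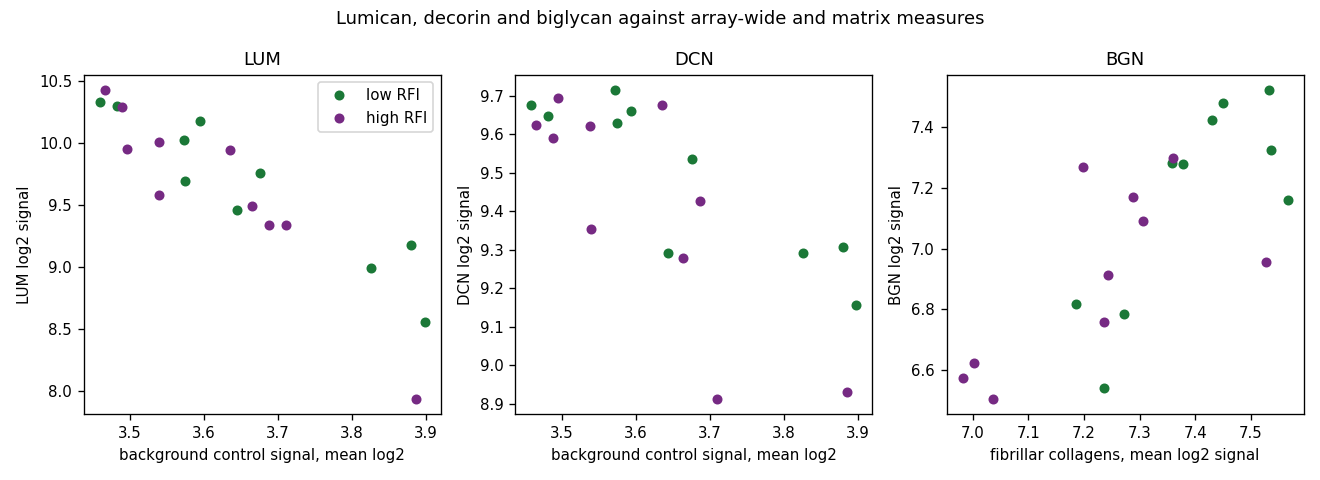
LUM and DCN log2 signal against the mean log2 signal of the background control probe sets, and BGN log2 signal against the mean log2 signal of 7 fibrillar collagen genes, 1 point per animal coloured by RFI group. LUM and DCN fall along the background signal (r = -0.92 and -0.81) and BGN rises along the collagen mean (r = 0.72).

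Fibrillar collagens, the partners on which these proteoglycans sit, were higher in low RFI for 7 of 7 tested genes, with a median difference of 0.18, and 0 passed adjustment. By unadjusted limma p, COL5A2 and COL1A2 were under 0.05, where 2.15% of represented genes were higher by that rule. COL5A2, a chain of the type V collagen that starts fibrils, differed by 0.23 ± 0.10 (SE; p = 0.023). COL1A2, a chain of type I collagen, differed by 0.22 ± 0.10 (SE; p = 0.0425). COL3A1, the chain of type III collagen, differed by 0.21 ± 0.11 (SE; p = 0.0731), and COL11A1 was below the background mean. The collagen mean ran from 7.19 to 7.57 in low RFI animals and from 6.98 to 7.53 in high RFI animals.

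BGN followed the collagens from animal to animal. Its r with the collagen mean was 0.72 and its rho 0.65 (permutation p = 0.00053 and 0.00323, adjusted over the 128 relations p = 0.00969 and 0.05005), and r was 0.66 without the 2 animals farthest from the median. Within the RFI groups r was 0.78 in low RFI and 0.68 in high RFI. FMOD had r = 0.54 and rho = 0.51 (permutation p = 0.0162 and 0.0266, adjusted p = 0.094 and 0.148). PRELP had r = 0.33, OGN 0.16, KERA 0.12, ASPN 0.01, LUM -0.12 and DCN -0.28, with adjusted permutation p from 0.456 to 0.988. With the collagen mean as a covariate, the difference between RFI groups was -0.01 ± 0.12 (SE) for BGN and 0.04 for FMOD, while it was 0.30 for ASPN and 0.16 for DCN.

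The wider pathway showed small differences and no call after adjustment. Of 5 tested relatives in the family (PODN, OPTC, TSKU, CHAD and OMD), 2 were higher in low RFI and the median difference was -0.05. Podocan (PODN) differed by 0.21 ± 0.16 (SE), OPTC by -0.09 ± 0.13, TSKU by -0.07 ± 0.11, CHAD by 0.07 ± 0.15 and OMD by -0.05 ± 0.14, and OPTC and OMD were below the background mean. Of 18 genes for TGF-beta ligands, receptors and latency proteins, 10 were higher in low RFI, 0 with an unadjusted p under 0.05. TGFB1, the ligand that decorin, biglycan and asporin bind, differed by 0.21 ± 0.13 (SE; limma, unadjusted p = 0.102), and its latency protein LTBP1 by 0.11 ± 0.08. From animal to animal the mean of the TGF-beta list followed LUM with r = 0.91 and rho = 0.82 (permutation p = 1e-05 and 4e-05, adjusted p = 0.00032 and 0.00256), or r = 0.76 without the 2 animals farthest from the median. DCN had r = 0.71 and rho = 0.62 with that list (permutation p = 0.00053 and 0.0038, adjusted p = 0.00969 and 0.05005), or r = 0.52 without those 2 animals. The list mean had r = -0.87 with the background control signal. With that signal removed, r was 0.55 for LUM and 0.03 for DCN, and without the 4 arrays of highest background it was 0.59 and 0.35.

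Enzymes that build the sugar chains differed little. Of 16 genes of glycosaminoglycan chain synthesis, 11 were higher in low RFI and 0 had an unadjusted p under 0.05. CHST11, a chondroitin sulfotransferase, differed by 0.18 ± 0.09 (SE; limma, unadjusted p = 0.0622), but its only other probe set pointed the opposite way and the mean of both differed by 0.01. XYLT1, which starts the chain, differed by 0.21 ± 0.12, and CHST14, the dermatan sulfotransferase, by 0.15 ± 0.09. Of 7 genes of keratan sulfate synthesis 4 were higher, with B4GALT1 at 0.13 ± 0.10 and, as the mean of its 2 opposed probe sets, at 0.04. Of 14 proteases that cleave proteoglycans 9 were higher, 0 with an unadjusted p under 0.05. ADAMTS5 differed by 0.21 ± 0.15, MMP14 by 0.16 ± 0.10 and GZMB by -0.22 ± 0.12, the last with both of its other probe sets pointing the opposite way.

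Among 13 receptors that these proteins bind, 7 were higher in low RFI. The innate receptor TLR4, which soluble biglycan activates, differed by 0.34 ± 0.16 (SE; limma, unadjusted p = 0.046). Of its 5 other probe sets 3 had the same sign, and the mean of all its probe sets differed by 0.02. KDR, a receptor bound by decorin, differed by -0.25 ± 0.16, or -0.09 without the 4 arrays of highest background. Of 21 large proteoglycans and other matrix partners 13 were higher. The microfibril protein FBN1 differed by 0.31 ± 0.12 (SE; limma, unadjusted p = 0.0161), the fibril-associated collagen gene COL12A1 by 0.29 ± 0.15, fibronectin (FN1) by 0.26 ± 0.13 and COL6A2 by 0.21 ± 0.12. The mean of the receptor list followed LUM with r = 0.84 and rho = 0.73 (permutation p = 2e-05 and 0.00063, adjusted p = 0.000512 and 0.0161) and DCN with r = 0.79 and rho = 0.70 (permutation p = 1e-05 and 0.00045, adjusted p = 0.00032 and 0.0144). Without the 2 animals farthest from the median these r were 0.73 and 0.68, and the receptor mean had r = -0.85 with the background control signal. With that signal removed, r with the receptor mean was 0.31 for LUM and 0.33 for DCN. OGN had r = 0.56 and rho = 0.51 with the receptor mean (permutation p = 0.00607 and 0.02, adjusted p = 0.0486 and 0.116). BGN had r = 0.62 and rho = 0.56 with the mean of the large proteoglycans and matrix partners (permutation p = 0.00486 and 0.014, adjusted p = 0.0438 and 0.105). Without the 2 farthest animals these r were 0.49 and 0.59. OGN itself had r = -0.50 with the background control signal. TLR4 and FBN1 were the only genes of these lists with an unadjusted p under 0.05, and all adjusted p were above 0.05.

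Markers of other cell types were read beside these values. Of 8 fibroblast and tendon markers 7 were higher in low RFI, with a median difference of 0.16, and their mean ran from 5.68 to 5.97 in low RFI and from 5.46 to 5.91 in high RFI. From animal to animal the fibroblast and tendon mean had r = 0.45 with ASPN, 0.40 with KERA, 0.27 with BGN and 0.20 with FMOD. It had r = 0.19 with OGN, -0.003 with DCN, -0.11 with LUM and -0.18 with PRELP. The adjusted permutation p of these relations ran from 0.242 to 0.991. THY1 differed by 0.21 ± 0.10 (SE; limma, unadjusted p = 0.0375), MFAP5 by 0.22 ± 0.14, DPT by 0.21 ± 0.16 and CD34 by 0.12 ± 0.10, and the only other probe set of DPT pointed the opposite way. TNMD, the marker that was lower, differed by -0.097 ± 0.099 (SE) and lay below the background mean at 2.01. PDGFRB, SCX, MKX, COMP, THBS4 and FAP of this list were not tested. Of 8 macrophage markers 7 were higher, with a median difference of 0.29. For 4 of them the unadjusted p was under 0.05, where 2.15% of represented genes were higher by that rule. The mean of the 8 markers ran from 4.35 to 5.09 in low RFI and from 4.20 to 4.74 in high RFI. The scavenger receptor gene MSR1 differed by 0.48 ± 0.21, VSIG4 by 0.46 ± 0.19, TYROBP by 0.26 ± 0.12 and LYZ by 0.51 ± 0.18, and MSR1 and LYZ were below the background mean. MARCO, also below it, differed by -0.18 ± 0.12, and CD68 and CSF1R of this list were not tested.

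The macrophage mean followed BGN with r = 0.65 and rho = 0.62 (permutation p = 0.00353 and 0.00626, adjusted p = 0.0377 and 0.0728), and r was 0.67 without the 2 animals farthest from the median. The smooth muscle and pericyte mean ran against BGN (r = -0.64, rho = -0.68, permutation p = 0.00323 and 0.00146, adjusted p = 0.0376 and 0.0267) and against FMOD (r = -0.68, rho = -0.70, permutation p = 0.00125 and 0.00077, adjusted p = 0.0178 and 0.0164). Without the 2 animals farthest from the median these r were -0.57 and -0.60. The same mean rose along LUM (r = 0.70, rho = 0.54, permutation p = 0.00118 and 0.018, adjusted p = 0.0178 and 0.116) and DCN (r = 0.61, rho = 0.59, permutation p = 0.00513 and 0.0073, adjusted p = 0.0438 and 0.0735). Without the 2 farthest animals these were 0.45 and 0.39. The skeletal muscle fibre mean followed LUM with r = 0.66 and rho = 0.46 (permutation p = 0.00213 and 0.0473, adjusted p = 0.0273 and 0.219), or 0.35 without the 2 farthest animals and 0.12 with the background signal removed. With that signal removed, r with the smooth muscle mean was 0.59 for LUM, 0.32 for DCN, -0.55 for BGN and -0.63 for FMOD. The smooth muscle mean had r = -0.56 with the background control signal and the macrophage mean r = 0.21. Of the genes in the smooth muscle mean, RGS5 had the widest spread, with an SD of 1.11 in low RFI and 0.87 in high RFI. The SD of the others reached at most 0.40, in MYH11, and CNN1 and NOTCH3 were not tested. How far the correlations of this mean rest on RGS5 was not tested. The part of these cell types in the proteoglycan values was not tested.

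The remaining marker lists covered fat, vessels, fibres and skeleton. Of 11 adipocyte markers 8 were higher in low RFI, 0 with an unadjusted p under 0.05, with SCD at 0.63 ± 0.44 (SE), or 0.02 with the collagen mean as covariate. Of 10 endothelial markers 5 were higher, of 6 smooth muscle and pericyte markers 4, of 8 cartilage and bone markers 5, and of 12 skeletal muscle fibre markers 3. The adipocyte mean ran from 6.04 to 7.47 in low RFI and from 6.004 to 7.44 in high RFI. The endothelial mean ran from 5.39 to 6.04 and from 5.51 to 5.85, and the smooth muscle mean from 6.93 to 7.45 and from 6.92 to 7.53. DCN ran against the cartilage and bone mean (r = -0.64, rho = -0.64, permutation p = 0.00417 and 0.00391, adjusted p = 0.0411 and 0.05005), or r = -0.50 without the 2 farthest animals. That mean had r = 0.54 with the background control signal, and 4 of its 8 genes were below the background mean.

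The genes most like each member in pattern were taken from the represented genes at or above the background mean, by Pearson r over the 20 animals with group means subtracted. For LUM they were CCT2 (r = 0.97), FARSB (0.96) and ARCN1 (0.96), and for DCN they were ERGIC2 (0.92), TOB1 (0.92) and FILIP1 (0.91). LUM ranked 97th of 8553 genes for DCN, while DCN ranked 487th for LUM. The 95th percentile of r over all these genes was 0.865 for LUM, above the r of 0.856 between LUM and DCN. That percentile was 0.80 for DCN and 0.51 for BGN. High correlations were therefore common for LUM and DCN. After the background signal was removed, CCT2 kept r = 0.80 with LUM and ERGIC2 r = 0.80 with DCN.

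For BGN the most similar genes were FBLN1 (r = 0.84), the gene of the matrix protein fibulin-1, DPM2 (0.82) and ARSA (0.81), and FMOD ranked 180th. FBLN1 itself differed by 0.31 between RFI groups (limma, unadjusted p = 0.03). For FMOD they were RELT (0.84), RNF167 (0.82) and RHOBTB2 (0.76), with BGN ranked 78th. For OGN they were TFPI2 (0.78), HNRNPC (0.77) and DCAF5 (0.74), with DCN ranked 119th. For PRELP they were HERC2 (0.79), CHD4 (0.75) and POPDC2 (0.74), and for ASPN they were GML (0.84), UPP1 (0.63) and ST6GALNAC2 (0.63). For KERA, at background, they were TULP3 (0.69), TMEM135 (0.68) and MRC1 (0.67). No proteoglycan of the 8 was among the 3 nearest genes of another, though KERA, below the background mean, was not among the candidates.

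Single animals did not stand high or low in every member. In low RFI an animal was above the gene's median for 3 to 7 of the 8 members, and in high RFI for 1 to 6. Low RFI replicate 6 was the highest of the 20 animals in BGN, FMOD and KERA but ranked 6 from the lowest in DCN and 7 in LUM. High RFI replicate 9 was the lowest in LUM and OGN and ranked 18 from the lowest in FMOD. High RFI replicate 1 was the lowest in both BGN and FMOD and was above the median for 1 member.

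**Figure D5:**
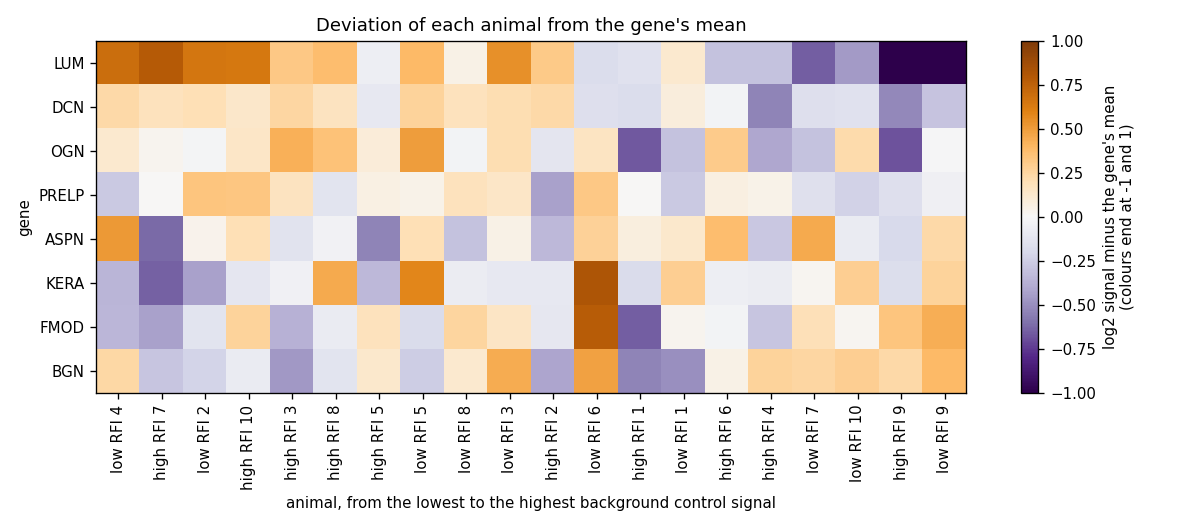
Log2 signal of each gene minus its mean (colour) in each of the 20 animals, ordered from the lowest to the highest background control signal. LUM and DCN turn from above to below their means toward the right, where high RFI replicate 9 holds the lowest LUM.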

How the data were processed

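The authors deposited log2 signals per probe set for 20 arrays; the log2 scale was read from their range. Per the labels' protocols, DNA made from total RNA was labelled and hybridised. GCOS 1.1.1 is named per the submitters' processing notes; summarisation, background correction and normalization are not given in the sources used here, and the values were tested as they stood.

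Of 47845 probe sets, 123 controls were left out, and those with a mean above the 30th percentile (1.75) were kept, which left 33405. Platform annotation gave 26426 probe sets 1 symbol, 0 several and 21419 none, and 428 symbols were updated. Low minus high RFI was fitted with limma 3.58.1 in R 4.3.3 (lmFit, then eBayes; 2-sided p) and adjusted by Benjamini-Hochberg across the tested table, after the script was tested on simulated data. Correlations and figures used Python 3.11.15, scipy 1.17.1 and matplotlib 3.10.9. Permutations for correlations with group means subtracted kept animals within their RFI group. Those for group differences, and for correlations without that subtraction, shuffled animals across both groups. Dim log2 signals are compressed toward background.

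The members and the 15 gene lists were chosen with earlier results of these data known. Named were all members, up to 4 genes per list by p, and the 3 genes most like each member. OMD (the fifth of its list), MARCO, PYGM, TNMD and the lists' correlations, with their permutation p, were chosen after their values were seen. Alternatives covered the filter, the centring, the probe set rule, array weights, a rank-sum test, covariates and left-out arrays. Of positions only the order of neighbouring genes was used, and sequences were not analysed here.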

Additional observations from a re-analysis of the deposited data

Results flagged for a closer look

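Of 18 groups of 10 animals checked, 9 probe sets in each RFI group, 2 held an animal that lay far from the others, where chance flags about 1 group in 20. LUM in high RFI replicate 9 was 7.93, and the next animal of the group was at 9.34, a gap of 0.562 of the group's range. That array had the second highest background control signal of the 20, at 3.89. The dimmer probe set of PRELP in high RFI replicate 2 was 4.15, with the next animal at 4.82 and a gap of 0.623 of the range. The brighter PRELP probe set was also lowest in that animal.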

How the results depend on the processing

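Adjusted p of the 8 members stayed between 0.791 and 1 in all 31 limma fits. Signs turned as follows, and the cause was not tested. By difference of medians (rank-sum test), LUM was -0.039, OGN -0.0027 and PRELP -0.029, so that 5 of 8 members were higher in low RFI. With the collagen mean as covariate, BGN was -0.012, PRELP -0.072, OMD 0.033 and MMP14 -0.033. COL1A2 was -0.00058 and COL3A1 -0.032 there, but both are part of that mean, so their values are no separate test. With the mean of all probe sets, GZMB was 0.25. With single animals left out, LUM ran from -0.17 to 0.14, PRELP from -0.037 to 0.048 and OMD from -0.12 to 0.036, 6 to 8 members were higher, and 0 to 1 probe sets were called, 1 without high RFI replicate 9. LUM was below 0 without low RFI 2, 3, 4 or 5 or high RFI 4, 6 or 9. PRELP was below 0 without low RFI 2, 3, 6 or 8 or high RFI 2, 8 or 9, and OMD was above 0 without high RFI 3. Without the 4 arrays of highest background 1 probe set was called. Pairs past the threshold numbered 3 without subtracting group means and 0 after the background signal was removed. Correlations with the collagen mean turned for LUM (0.065, high RFI only), KERA (-0.023, high RFI only) and ASPN (-0.053 by Spearman, -0.32 in low RFI only). Correlations between neighbours turned for DCN with KERA (0.12 after the background signal was removed, 0.08 in high RFI only), LUM with KERA (0.05 after the background signal was removed) and OGN with ASPN (-0.10 in low RFI only). The collagen covariate also took THY1 to 0.06, FN1 to 0.05, COL12A1 to 0.03, B4GALT1 to 0.03 and TGFB1 to 0.10. It took COL5A2, itself part of the collagen mean, to 0.04. The mean of all probe sets took TLR4 to 0.02, CHST11 to 0.01, DPT to 0.10 and FBN1 to 0.19. A stricter filter left KERA untested. Signals near background limit KERA, ASPN and OMD.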
